A study of Mus musculus with 4 samples.

Results

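Integrins are the receptors by which cells hold on to the extracellular matrix and to each other, and focal adhesion proteins link them to actin inside the cell. 37 genes of this kind were chosen by name as matrix-binding integrins, leukocyte integrins, adaptors of the focal adhesion and further matrix receptors, and were measured in the gonadal white adipose tissue (WAT) of mice with the Fsp27 knockout and of wild-type mice. Probe sets annotated with a single gene symbol measured 35 of the 37, with 79 of the 22690 probe sets on the array, and Itga1 and Ptk2 are unnamed here. FSP27, encoded by Cidec, is a protein of the lipid droplet. The FSP27-deficient group carried the Fsp27 knockout and the wild-type group did not. Mice of both groups were males of 3 months from strain C57BL/6J, and no treatment is given for either. RNA from the gonadal WAT of 5 mice per genotype was pooled, and each pool was hybridised in duplicate to an Affymetrix array, which gave 2 FSP27-deficient and 2 wild-type arrays. The knockout is not limited to adipocytes by any label, and the tissue also holds blood vessels, fibroblasts and immune cells.

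An integrin is a pair of an alpha and a beta subunit. The alpha chain largely sets which ligand is bound, and the beta chain carries the tail that talin and kindlin bind when the receptor is switched on. ILK, PINCH and parvin form a complex on that tail, and paxillin and FAK bring signalling enzymes to it. Syndecans, CD44, dystroglycan and the discoidin domain receptors bind matrix molecules without being integrins. In fat, matrix receptors sit on adipocytes and on the cells between them, while integrins of the beta2 family are known from leukocytes, macrophages of adipose tissue included.

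The deposited value is the signal of the Affymetrix software GCOS, a brightness on a linear scale. Each gene was read from its probe set with the highest mean signal, signals were taken to log2 after adding 16, and the 8523 genes whose signals averaged 100 or more went into limma, a linear model for arrays, with p-values adjusted over all of them. Differences on the log2 scale are FSP27-deficient minus wild-type, and they understate changes at low signal. Array medians were between 165 and 193. Across the genes tested, the duplicates had a Spearman correlation of 0.927 in FSP27-deficient WAT and of 0.959 in wild-type WAT, and arrays of different genotypes one of 0.882 to 0.913. Over all 22690 probe sets the FSP27-deficient duplicates had 0.896, which is below the 0.908 and 0.912 of the second FSP27-deficient array with the wild-type arrays. Since the duplicates are repeats of 1 pool, p-values here speak of technical spread, the mice of a pool being unresolved, and an exact permutation test of 4 arrays cannot go below p = 0.333. Cidec itself had signals of 8564 and 8949 in FSP27-deficient WAT and 20491 and 18255 in wild-type WAT. Whether its probe set lies in the deleted part was not stated in the sources read, and this level alone does not check the labels. The adipocyte markers Adipoq and Fabp4 gave signals of 43790 or more on each array, so that markers of the labelled tissue are present.

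Of the 35 genes measured, 26 passed the minimum signal. 9 of the 26 were lower in FSP27-deficient WAT with a limma adjusted p under 0.05, against 6.51% of all genes tested. In limma 0 members were called higher, against 5.78% of all genes tested. At an unadjusted p under 0.05 in limma, 12 members were lower and 0 higher, beside 2158 of the 8523 genes in either direction. An unpaired t-test was also run, a kind the paper's methods name for group differences, while its array genes were selected by fold. It gave 7 members an unadjusted p under 0.05, all of them lower, beside 1309 of the 8523 genes, and 0 after adjustment. The 9 called lower by limma were Itgb2, Itgav, Itgb5, Tln1, Pxn, Parva, Ddr2, Sdc1 and Sdc2, with log2 fold changes of -1.46 to -0.72. The median over the 26 was -0.67, beside -0.08 over all genes tested, and 23 of the 26 values were negative. Both FSP27-deficient arrays lay below both wild-type arrays for 16 of the 26, where 31.4% of all genes did so, and above them for 0 of 26, where 22.7% of all genes did so. By the study's kind of criterion, a ratio of at least 1.41 with both ratios of arrays of the same replicate number on the same side of 1, 15 members were lower (20.6% of all genes) and 0 were higher (14.4% of all genes). The 15 include Lims1, whose arrays overlapped, and with both arrays of a genotype required to be apart from both of the other the count was 14. The count of 9 rests on the wild-type arrays, as do the calls over all genes, which also fell when either was left out. The spread is then estimated from the FSP27-deficient duplicates alone. The median over the 26 was -0.76 without the first wild-type array and -0.64 without the second. Without the first wild-type array limma called 0 members, of 13 with an unadjusted p under 0.05, and without the second it called 2, Itgb2 and Tln1. The count of 9 also rests on the trend of spread with signal in limma, without which 0 members were called. At an unadjusted p under 0.05 that fit had 10 members, beside 1861 of the 8523 genes in either direction.

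**Figure D1:**
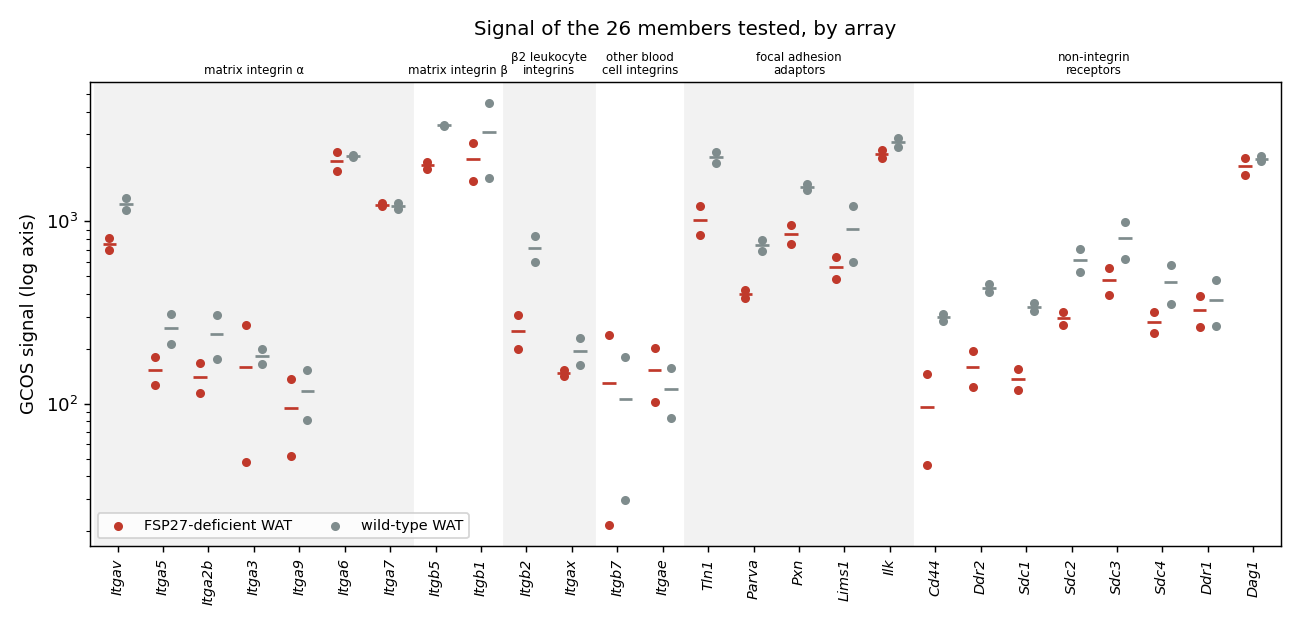
GCOS signal (log axis) of the 26 members tested on each of the 4 arrays, with FSP27-deficient WAT in red on the left and wild-type WAT in grey on the right of each gene, and a short line for the mean of 2 arrays. The red points lie below the grey points for 16 genes, the pairs of Itga6, Itga7 and Dag1 overlap at high signal, and the duplicates of Itgb7 and Itgb1 stand far apart.

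Among the matrix-binding integrins, the pair of Itgav and Itgb5 was lower in FSP27-deficient WAT. Together the alpha-v and beta5 chains form a receptor for vitronectin, and alpha-v beta5 is also known as a receptor for MFG-E8 in the uptake of dead cells. Itgav had signals of 806 and 699 in FSP27-deficient WAT and 1152 and 1343 in wild-type WAT. That is a log2 difference of -0.72 (standard error, SE, 0.21, limma adjusted p = 0.043). Its highest FSP27-deficient signal was under its lowest wild-type signal by a wider gap than the duplicates of either genotype had between them. Itgb5 gave 2124 and 1945 in FSP27-deficient WAT and 3338 and 3386 in wild-type WAT, again -0.72 on the log2 scale (SE 0.18, adjusted p = 0.018). The other 3 probe sets of Itgb5 gave -0.68, -0.72 and -0.77. In all 4 of them both FSP27-deficient arrays lay below both wild-type arrays, though 2 of the probe sets are of a kind that can hold probes shared with other transcripts. In the fit over all 14395 probe sets, 2 of the 4 passed the threshold (adjusted p = 0.024 and 0.031) and 2 did not (0.054 and 0.064), and the probe set of Itgav had adjusted p = 0.053. Itgav has 2 further probe sets under the minimum signal, which disagree. One gave 97.2 and 95.0 in FSP27-deficient WAT and 23.3 and 113 in wild-type WAT, and the other 11.9 and 9.26 in FSP27-deficient WAT and 97.8 and 66.8 in wild-type WAT.

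The windows from 250 bases before to 50 bases after the annotated starts of Itgav and Itgb5 are shown because both genes were lower by nearly the same amount. They are RefSeq sequence of build GRCm38.p6, at chr2:83724147-83724446 and chr16:33829415-33829714, both on the plus strand. Capitals mark the GC box GGGCGG, on either strand, the element known from promoters that bind Sp1.
Itgav: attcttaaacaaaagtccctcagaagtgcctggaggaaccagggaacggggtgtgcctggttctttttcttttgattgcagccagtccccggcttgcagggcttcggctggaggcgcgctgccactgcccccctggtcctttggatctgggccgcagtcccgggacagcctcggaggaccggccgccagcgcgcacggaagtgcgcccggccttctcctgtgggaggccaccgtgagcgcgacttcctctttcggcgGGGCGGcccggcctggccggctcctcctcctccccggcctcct
Itgb5: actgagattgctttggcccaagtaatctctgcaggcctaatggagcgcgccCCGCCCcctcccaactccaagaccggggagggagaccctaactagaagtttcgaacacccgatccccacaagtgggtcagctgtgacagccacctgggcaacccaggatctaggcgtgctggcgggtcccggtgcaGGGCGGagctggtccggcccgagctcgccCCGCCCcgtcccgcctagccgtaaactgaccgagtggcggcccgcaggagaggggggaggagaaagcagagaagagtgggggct

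Itgav held 1 GC box, at base 8 counted from the start, and Itgb5 held 3, at bases -199, -63 and -34. Both windows were rich in G and C, at 67.3% and 65.7%, beside a median of 52.7% over the 27025 genes with such a window. A GC box stood in 35.9% of those windows and in 16 of the 26 that matched a member. Of the members called lower, Itgav, Itgb5, Ddr2, Sdc1 and Tln1 matched, and 3 of these 5 held one. The core GAGGAAG of ETS factors such as PU.1, which overlaps no GC box in its letters, was in 13.5% of all windows, in 6 of 26 members and in Itgav and Sdc1 of the 5. GGAATG (known from TEAD factors) was in 14.6% of all windows and in 1 member, Itgb1. TGANTCA (AP-1) was in 7.93% of all windows and in 2 members, Itgax and Itga9. TATAAA was in 14.2% and in 1 member, Ddr2. The CArG box was in 1.57% and in 0 of the 26. Both strands were searched for each, and the Tln1 window held none of the 6 motifs. A match describes letters and not a bound site.

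The other matrix integrins did not pass the test. Itga5, the alpha chain of the fibronectin receptor, gave 181 and 127 in FSP27-deficient WAT and 309 and 213 in wild-type WAT (log2 difference -0.70, SE 0.38, limma adjusted p = 0.28), and its second probe set gave -0.15 with overlapping arrays. Itga2b, the alpha chain of the platelet fibrinogen receptor, gave 114 and 167 in FSP27-deficient WAT and 176 and 305 in wild-type WAT (adjusted p = 0.35). For both genes the brightest probe set had its FSP27-deficient arrays under its wild-type arrays, but by no more than the duplicates spread. Of the 4 platelet markers tested 1, Pf4, was lower, and Treml1 had a positive value (0.50, not past the threshold). The summed signal of the 6 platelet markers measured was 1320 and 1460 in FSP27-deficient WAT, against 2189 and 2088 in wild-type WAT. Pf4 made up most of it, with 783 and 828 in FSP27-deficient WAT and 1276 and 1736 in wild-type WAT. Gp1bb, Gp9, Ppbp and Gp5 overlapped between genotypes, and Treml1 was above in both FSP27-deficient arrays, so the sum does not speak for platelet markers as a group. The part of these markers in Itga2b was not tested.

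Itgb1, the beta chain shared by most matrix integrins, cannot be read firmly from its brightest probe set. That probe set gave 2700 and 1673 in FSP27-deficient WAT, against 1724 and 4456 in wild-type WAT, so the genotypes overlapped and the wild-type duplicates stood farthest apart. A second probe set, with tighter duplicates, gave 1369 and 1440 in FSP27-deficient WAT and 1697 and 1949 in wild-type WAT, a log2 difference of -0.37 (limma adjusted p = 0.285 among probe sets). The dimmest of those tested gave -0.16 with overlapping arrays. None passed the test, and the first turned to 0.30 without the second wild-type array.

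The laminin-binding chains Itga6 and Itga7, both bright, did not pass the test. Itga6 gave 2406 and 1892 in FSP27-deficient WAT and 2254 and 2314 in wild-type WAT (-0.10, SE 0.19). Itga7, a laminin receptor chain best known from muscle, gave 1208 and 1265 in FSP27-deficient WAT and 1258 and 1176 in wild-type WAT (0.02, SE 0.19). These standard errors are close to that of Itgav, and the genotypes overlapped for both genes in the brightest probe set. A second probe set of Itga6 gave 626 and 462 in FSP27-deficient WAT and 645 and 904 in wild-type WAT, with the genotypes apart (-0.49, adjusted p = 0.275 among probe sets). Itga3, with 271 and 47.7 in FSP27-deficient WAT and 201 and 166 in wild-type WAT, and Itga9, with 137 and 51.5 in FSP27-deficient WAT and 81.2 and 153 in wild-type WAT, were too variable between duplicates to compare. Over the 9 matrix integrin subunits tested, 2 were lower and 0 higher, against 6.51% and 5.78% of all genes tested. Their median log2 fold change was -0.56.

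**Figure D2:**
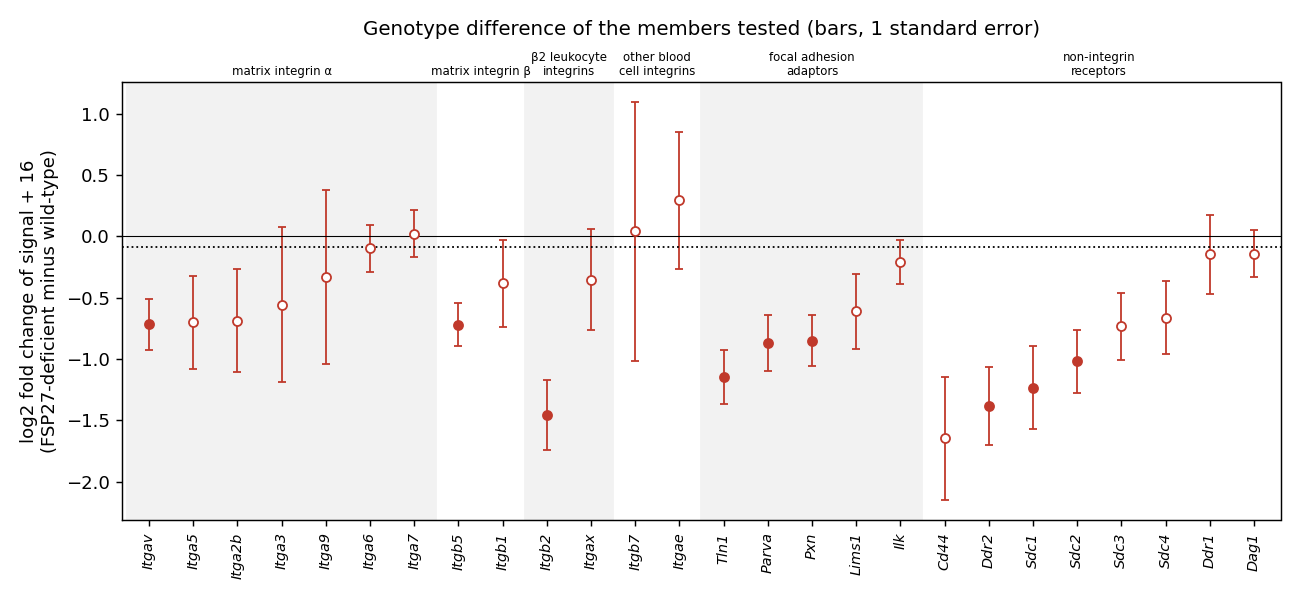
Log2 fold change, FSP27-deficient minus wild-type, of signal plus 16 of the 26 members tested, by role, with 1 standard error from limma. Filled points are the 9 members past an adjusted p of 0.05, and the dotted line is the median of all genes tested, -0.08. All 9 filled points lie below -0.7, and the highest points are Itgae and Itgb7, with wide bars.

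The beta2 chain Itgb2, which every leukocyte integrin of the CD11 family needs, had the lowest log2 fold change of the members called. Its signals were 305 and 199 in FSP27-deficient WAT and 829 and 597 in wild-type WAT, 2.83-fold lower on average (log2 difference -1.46, SE 0.28, limma adjusted p = 0.006). Both FSP27-deficient arrays were far below both wild-type arrays. Of its alpha partners only Itgax (CD11c, a chain of dendritic cells and macrophages) passed the minimum signal, with 153 and 142 in FSP27-deficient WAT and 229 and 162 in wild-type WAT (-0.35, adjusted p = 0.66). Itgam (CD11b, on macrophages and granulocytes) gave 73.9 and 42.5 in FSP27-deficient WAT and 111 and 68.1 in wild-type WAT, and Itgal (CD11a, on lymphocytes) gave 13.9 and 130.5 in FSP27-deficient WAT and 91.6 and 69.7 in wild-type WAT. Both were under the minimum signal and overlapped between genotypes, so that their direction was not detectable at this brightness.

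Macrophage markers were lower beside Itgb2. Of the 15 macrophage markers, all tested, 11 were lower and 0 higher, against 6.51% and 5.78% of all genes tested. These markers had a median log2 difference of -1.26. Their summed signal was 9175 and 10468 in FSP27-deficient WAT, against 24673 and 23657 in wild-type WAT. Tyrobp, the adaptor of many myeloid receptors, gave 358 and 471 in FSP27-deficient WAT and 1406 and 1259 in wild-type WAT, and Csf1r, the receptor for the growth factor of macrophages, gave 2061 and 2334 in FSP27-deficient WAT and 4339 and 4057 in wild-type WAT. Adgre1, Cd14, Mpeg1 and Aif1 did not pass the test. Granulocytes also carry Itgb2, and their markers were mixed. Of the 9 measured 3 were tested, with 0 lower and 0 higher, 3 positive values and a median of 0.51. The 9 summed to 1251 and 865 in FSP27-deficient WAT and 752 and 729 in wild-type WAT. Of this, S100a8 gave 692 and 218 in FSP27-deficient WAT and 255 and 287 in wild-type WAT. Among the 3 tested, 2 overlapped between genotypes and Mpo was above in both FSP27-deficient arrays. Under the minimum signal, S100a9 and Camp were below in both FSP27-deficient arrays, Elane was above and the others overlapped. None of the macrophage markers was at 0. In bulk tissue, fewer macrophages and less of this RNA in each cannot be told apart, and the part of these markers in the lower Itgb2 was not tested.

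The integrins of lymphocytes did not pass the test or the minimum signal. Itgb7, the beta chain of the gut-homing integrin, gave 237 and 21.7 in FSP27-deficient WAT and 181 and 29.7 in wild-type WAT, and the first array of each genotype was high and the second low. Itgae (CD103), its partner on T cells of epithelia, gave 102 and 203 in FSP27-deficient WAT and 158 and 83.1 in wild-type WAT. Itga4, which pairs with beta1 or beta7, was under the minimum signal at 126 and 4.72 in FSP27-deficient WAT and 7.31 and 44.8 in wild-type WAT. The arrays give little from lymphocytes to set them against, as 0 of the 11 T and NK cell markers measured reached the minimum signal and 2 of 7 B and plasma cell markers did. The T and NK cell markers summed to 1031 and 752 in FSP27-deficient WAT and 718 and 668 in wild-type WAT, and those of B and plasma cells to 724 and 603 in FSP27-deficient WAT and 931 and 449 in wild-type WAT.

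Of the adaptors that couple integrins to actin, Tln1, Pxn and Parva were lower, while Ilk and Lims1 did not pass the test. Tln1, which encodes talin, the protein that binds beta tails and switches integrins on, gave 1208 and 837 in FSP27-deficient WAT and 2412 and 2092 in wild-type WAT. Its mean was 2.20-fold lower (log2 difference -1.15, SE 0.22, limma adjusted p = 0.005), and the gap between genotypes was wider than that between duplicates. Pxn, which encodes the scaffold paxillin, gave 953 and 752 in FSP27-deficient WAT and 1596 and 1483 in wild-type WAT (-0.85, SE 0.21, adjusted p = 0.019). Parva, which encodes the actin-binding alpha-parvin, gave 419 and 378 in FSP27-deficient WAT and 692 and 793 in wild-type WAT (-0.87, SE 0.23, adjusted p = 0.026).

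For Pxn and Parva the brightest probe sets, which gave the calls, are of a kind that can hold probes shared with other transcripts. Their dimmer probe sets gave smaller differences, none past the threshold. The 2 further probe sets of Pxn gave -0.47 and 0.05 with overlapping arrays, and the second of Parva gave -0.34 (adjusted p = 0.50 over all probe sets) with its FSP27-deficient arrays still below the wild-type arrays. A second probe set of Tln1, under the minimum signal, gave 28.1 and 76.9 in FSP27-deficient WAT and 118 and 102 in wild-type WAT. Ilk, the pseudokinase at the centre of the ILK, PINCH and parvin complex, gave 2229 and 2469 in FSP27-deficient WAT and 2884 and 2545 in wild-type WAT (-0.21, SE 0.18, adjusted p = 0.53). Lims1, which encodes PINCH1, gave 481 and 641 in FSP27-deficient WAT and 598 and 1220 in wild-type WAT (-0.61, adjusted p = 0.24), with overlapping arrays. Its other probe sets tested gave 0.04, with overlapping arrays, and -0.98, with the genotypes apart, and neither passed the test. Parvb stayed under 10 on each array. Of the 5 adaptors tested 3 were lower and 0 higher, against 6.51% and 5.78% of all genes tested. Their median log2 fold change was -0.85.

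Matrix receptors outside the integrin family gave 3 more of the 9 calls. Ddr2, a receptor tyrosine kinase for fibrillar collagen found on fibroblasts, gave 196 and 123 in FSP27-deficient WAT and 411 and 454 in wild-type WAT. It was 2.71-fold lower on average (log2 difference -1.39, SE 0.32, limma adjusted p = 0.014), with the genotypes far apart. Its relative Ddr1, known mostly from epithelial cells, gave 264 and 391 in FSP27-deficient WAT and 475 and 269 in wild-type WAT (-0.15). Ddr1 is read by the most probe sets of any member, 8, of which 7 were bright enough to test. None of the 7 passed the test, and they ranged from -0.98 to 0.49. Whether the differences of Ddr2 and Ddr1 themselves differ was not tested.

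Among the syndecans, proteoglycans whose heparan sulfate chains bind matrix and growth factors, Sdc1 and Sdc2 were lower. Sdc1 gave 119 and 154 in FSP27-deficient WAT and 357 and 324 in wild-type WAT (-1.23, SE 0.34, adjusted p = 0.033). Its second probe set gave 75.8 and 119.5 in FSP27-deficient WAT and 386 and 343 in wild-type WAT, -1.77 on the log2 scale (adjusted p = 0.011 over all probe sets). The genotypes were well apart for both. Of the 2 probe sets of Sdc1 under the minimum signal, one had the FSP27-deficient arrays below and the other overlapped, with 13.8 and 32.8 in FSP27-deficient WAT and 143 and 8.71 in wild-type WAT. Sdc2 gave 319.6 and 269.6 in FSP27-deficient WAT and 529.7 and 705 in wild-type WAT (-1.02, SE 0.26, adjusted p = 0.021), and its other 2 probe sets gave -0.72 and -0.66 with the genotypes apart, neither past the threshold over all probe sets (adjusted p = 0.22 and 0.195).

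Sdc3 has probe sets that disagree. The brightest gave 395 and 554 in FSP27-deficient WAT and 995 and 624 in wild-type WAT (-0.73, adjusted p = 0.109). Another gave 385 and 224 in FSP27-deficient WAT and 122 and 56.8 in wild-type WAT, a log2 difference of 1.63 (limma adjusted p = 0.049 among probe sets). The dimmest of those tested gave -0.05. The one at 1.63 is the only member probe set called higher, so no direction can be given for Sdc3. Sdc4, a syndecan found in focal adhesions, gave 243 and 318 in FSP27-deficient WAT and 352 and 574 in wild-type WAT (-0.66, adjusted p = 0.19), and its second probe set gave -0.05.

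Cd44, the hyaluronan receptor of leukocytes and mesenchymal cells, lay just outside the threshold. It gave 46.2 and 145.7 in FSP27-deficient WAT and 286 and 310.4 in wild-type WAT (log2 difference -1.65, SE 0.50, adjusted p = 0.051). The genotypes were apart, but the FSP27-deficient duplicates stood far from each other, unlike the wild-type ones. Dag1, which encodes the laminin receptor dystroglycan, gave 2234 and 1794 in FSP27-deficient WAT and 2148 and 2271 in wild-type WAT (-0.14), and its 4 probe sets ranged from -0.46 to 0.24. Over the 8 receptors of this group 3 were lower and 0 higher, against 6.51% and 5.78% of all genes tested, and the median was -0.88.

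Some markers of other cells that carry these receptors were lower too, where 6.51% of all genes tested were lower and 5.78% higher. Of 12 markers of fibroblasts and preadipocytes 6 were lower and 0 higher (median -0.70), and their summed signal was 25661 and 29477 in FSP27-deficient WAT, against 48529 and 47943 in wild-type WAT. Of the 7 mesothelial markers tested 4 were lower (median -1.12), with sums of 2269 and 1724 in FSP27-deficient WAT and 5394 and 5515 in wild-type WAT. The endothelial markers had 1 of 11 lower, Pecam1, which is 9.09% and near the 6.51% of all genes tested. Their median was -0.56, with sums of 7825 and 8535 in FSP27-deficient WAT and 11141 and 11695 in wild-type WAT. Smooth muscle markers had 2 of 5 lower, Acta2 and Mylk (median -0.42), with sums of 3898 and 4090 in FSP27-deficient WAT and 7336 and 7115 in wild-type WAT. Acta2 and Mylk made up most of these sums. Myh11, Cnn1, Des and Lmod1 overlapped between genotypes, and Cnn1 had a positive value (0.78, not past the threshold). Adipocyte markers had 2 of 8 lower, Cidec and Lep, but a median of 0.19 and sums of 180083 and 194121 in FSP27-deficient WAT and 162726 and 181175 in wild-type WAT. The part of these markers in Ddr2, the syndecans, Cd44, the matrix integrins and the adaptors was not tested. Among epithelial markers of the neighbouring epididymis, Epcam gave 11.7 and 46.4 in FSP27-deficient WAT and 259.5 and 305 in wild-type WAT. The other 2 tested did not pass and did not share its pattern. Lcn8 was above in both FSP27-deficient arrays, with 191 and 104 against 86.1 and 88.4 in wild-type WAT. Lcn5 overlapped, with 80.3 and 21.3 in FSP27-deficient WAT and 14.1 and 431 in wild-type WAT.

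**Figure D3:**
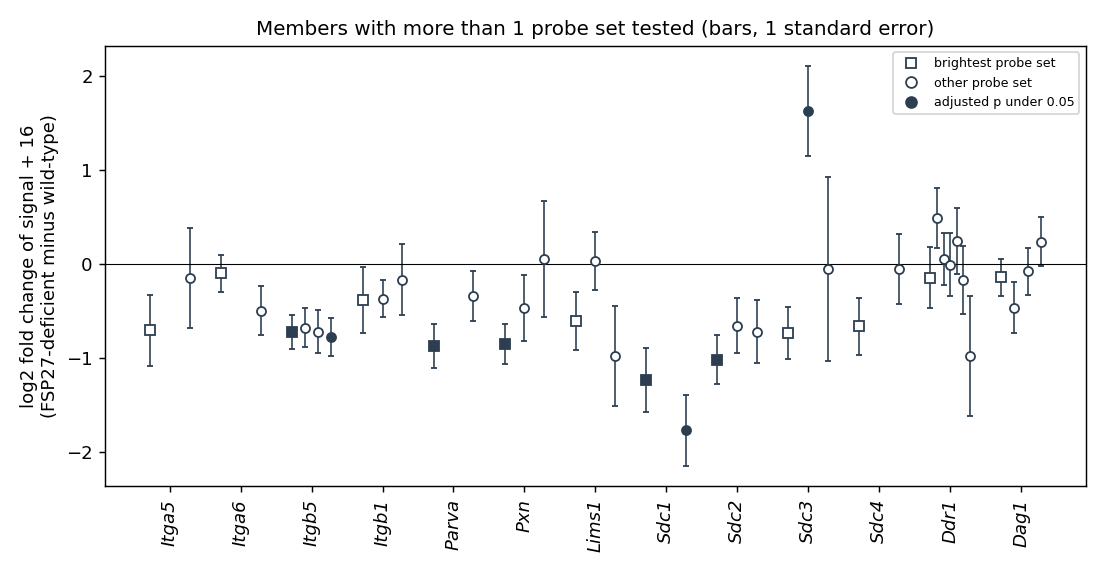
Log2 fold change, FSP27-deficient minus wild-type, of signal plus 16 of each probe set tested, for members with more than 1 tested, with 1 standard error; squares are the brightest probe set and filled symbols passed an adjusted p of 0.05 over all probe sets. The 4 probe sets of Itgb5 lie together near -0.7, those of Sdc3 run from -0.73 to 1.63, and those of Ddr1 lie on both sides of 0.

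Across all 53 member probe sets bright enough to test, 43 had a negative and 10 a positive log2 fold change, with a median of -0.46. Of the 53, 10 passed the threshold as lower (5.40% of all probe sets tested) and 1 as higher (4.81% of all). The 10 belong to 8 genes, which are the 9 called above without Itgav. The 9 members under the minimum signal were Itga2, Itga8, Itgb3, Itgb4, Itgb6, Itgal, Itgam, Itga4 and Parvb, with signals of 4.72 to 168 on single arrays, and 7 of them overlapped between genotypes. Itgb4, the beta chain of hemidesmosomes, was above in both FSP27-deficient arrays (135 and 52.6, against 31.7 and 25.8 in wild-type WAT). Itga8, a chain known from mesenchymal cells, was below (13.4 and 11.6 in FSP27-deficient WAT, 38.2 and 29.3 in wild-type WAT). Itga2, the alpha chain of a collagen receptor, gave 168 and 47.6 in FSP27-deficient WAT and 25.5 and 69.2 in wild-type WAT. Of the beta chains that pair with alpha-v, Itgb3 gave 81.6 and 15.1 in FSP27-deficient WAT and 50.1 and 15.5 in wild-type WAT, and Itgb6 gave 162 and 61.5 in FSP27-deficient WAT and 95.7 and 9.16 in wild-type WAT. None of these was tested at such signals, where duplicates of 1 pool often differed severalfold.

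Among further proteins of the focal adhesion, 7 of 34 tested were lower and 0 higher in limma, against 6.51% and 5.78% of all genes tested. At an unadjusted p under 0.05 these were 15 and 0, beside 2158 of the 8523 genes in either direction. The median of the list was -0.44. The 3 with the largest change among those past the threshold were Flna, Lims2 and Actn1. Flna, which encodes the actin crosslinker filamin A, gave 673 and 980 in FSP27-deficient WAT and 1945 and 2094 in wild-type WAT (-1.30, limma adjusted p = 0.003). Lims2, which encodes PINCH2, gave 958 and 1347 in FSP27-deficient WAT and 2129 and 3078 in wild-type WAT (-1.16, adjusted p = 0.007). Actn1, which encodes alpha-actinin 1, gave 383 and 381 in FSP27-deficient WAT and 887 and 852 in wild-type WAT (-1.15, adjusted p = 0.005).

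Each of these 3 had its FSP27-deficient arrays well below its wild-type arrays. The other 4 lower genes were Pdlim5, Tgfb1i1, Lasp1 and Fermt2, named after their values were seen, of which Fermt2 encodes kindlin-2, the partner of talin on beta tails (3908 and 3334 in FSP27-deficient WAT, 6128 and 5970 in wild-type WAT). Vcl, which encodes vinculin and is likewise named after its values were seen, gave -0.44 and did not pass (adjusted p = 0.145). Among other integrins and proteins that bind integrins, 1 of 8 tested was lower and 0 higher in limma, against 6.51% and 5.78% of all genes tested. At an unadjusted p under 0.05 these were 3 and 1. The gene past the threshold was Cd9, a tetraspanin, with 309 and 567 in FSP27-deficient WAT and 1194 and 1311 in wild-type WAT (-1.54, adjusted p = 0.003). The gene with the largest difference of that list, Itgb2l, a beta chain related to Itgb2 and named after its values were seen, had the opposite sign and did not pass, with 238 and 165 in FSP27-deficient WAT and 27.8 and 51.3 in wild-type WAT (1.98, adjusted p = 0.096).

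Of the matrix ligands of the members, a list chosen with earlier results of these data known, 15 of 29 tested were lower in limma. That stands against 6.51% of all genes tested, and 0 were higher, against 5.78%. At an unadjusted p under 0.05, 20 were lower and 0 higher, beside 2158 of the 8523 genes in either direction. The median of the list was -0.87. The paper had already reported collagens and other matrix genes as lower on these arrays. Fn1, which encodes fibronectin, gave 687 and 677 in FSP27-deficient WAT and 2830 and 3030 in wild-type WAT (-2.08). Thbs1, which encodes thrombospondin-1, gave 32.2 and 15.1 in FSP27-deficient WAT and 964 and 675 in wild-type WAT (-4.41). Col5a2, a chain of fibrillar collagen V, gave 1221 and 1326 in FSP27-deficient WAT and 3926 and 3882 in wild-type WAT (-1.61). These 3 had the largest change among those past the threshold, and their duplicates were close together beside the gap between genotypes. Among the ligands of alpha-v beta5, named after their values were seen, Mfge8, which encodes MFG-E8, gave 2546 and 2200 in FSP27-deficient WAT and 5535 and 5674 in wild-type WAT (-1.24, adjusted p = 0.001). Vtn, which encodes vitronectin, gave 237 and 453 in FSP27-deficient WAT and 374 and 433 in wild-type WAT (-0.28, adjusted p = 0.63), and the difference between these ligands was not tested. The ligands that integrins bind on other cells had 0 of 8 past the threshold in limma, and 0 at an unadjusted p under 0.05, and a median of -0.34, with Icam1, the ligand of beta2 integrins, at 194 and 169 in FSP27-deficient WAT and 304 and 236 in wild-type WAT. 2 genes, Col1a1 and Col3a1, stand both among the matrix ligands and among the fibroblast markers.

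**Figure D4:**
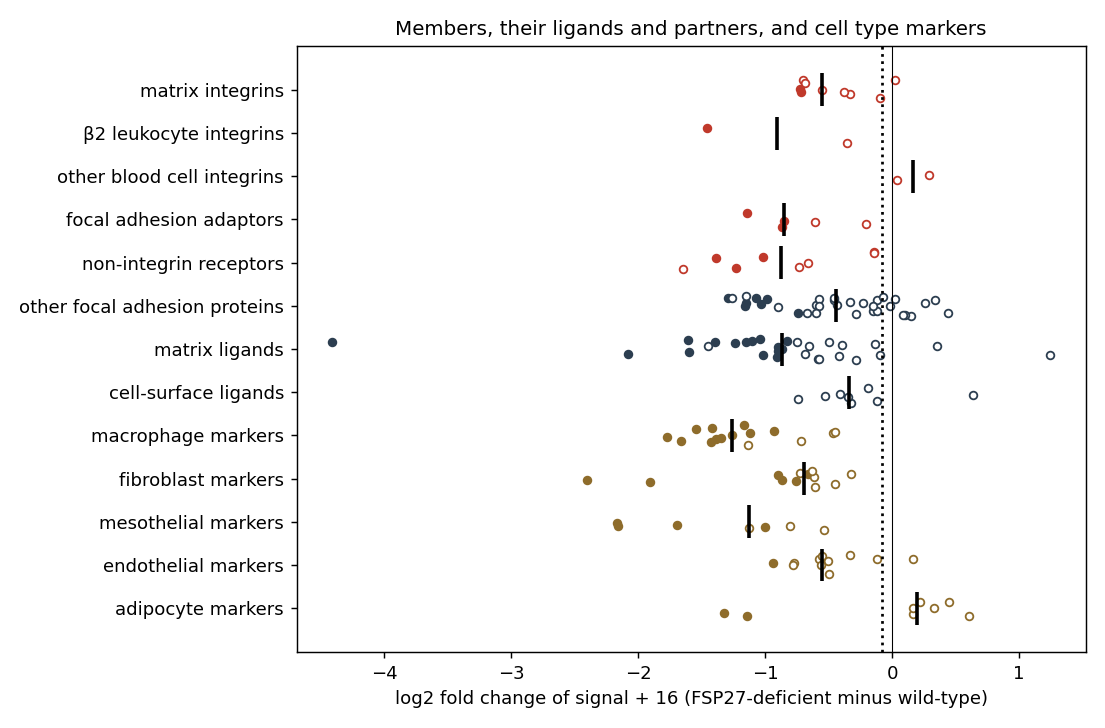
Log2 fold change, FSP27-deficient minus wild-type, of signal plus 16 of each gene tested, with members in red, other focal adhesion proteins and ligands in dark blue and cell type markers in brown; black lines are medians, filled points passed an adjusted p of 0.05 and the dotted line is the median of all genes tested. The medians of the matrix ligands (-0.87), adaptors (-0.85) and non-integrin receptors (-0.88) lie near each other, those of macrophage (-1.26) and mesothelial markers (-1.12) lie lower, and that of adipocyte markers (0.19) lies above 0.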

How the data were processed

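The authors deposited linear intensities, the GCOS signals of 22690 probe sets on 4 arrays. Version and scaling target of GCOS: not given in the sources used here, while precision is limited by the number of arrays. The platform's annotation gives 20393 probe sets 1 gene symbol and 691 several, which were not used, and 1606 are unnamed here. The 8523 of 12394 genes with signals averaging 100 or more were fitted on log2(signal + 16) by limma 3.58.1 under R 4.3.3 (lmFit, then eBayes with a trend on the signal). P-values were adjusted after Benjamini-Hochberg at a threshold of 0.05, on 2 residual degrees of freedom, 12.1 with the prior.

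The members and gene lists were chosen with earlier results of these data known. Named genes are the members, Cidec, up to 3 genes past the threshold with the largest change from each list of ligands and partners, and cell type markers. Promoter windows came from RefSeq, for 26 members. Alternatives were other pseudocounts, minimum signals, scalings, probe set rules and tests, the replicate number as a block, and each array left out. Real-time PCR and protein data were not analysed here.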

Additional observations from a re-analysis of the deposited data

How the results depend on the processing

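The 9 members called lower kept a negative log2 fold change in all 135 combinations of gene and alternative. For most alternatives this was fixed in advance, since both FSP27-deficient arrays lay below both wild-type arrays for all 9. Other pseudocounts, minimum signals and tests, the block and leaving out an array could not change such a sign. The number of members called lower was 6 with quantile normalization, where Itgav, Parva and Sdc1 did not pass. It was 4 with no filter on low signals or with each gene's probe sets averaged. It was 5 with each array centred on its median, and in these 3 settings too Itgav and Parva did not pass. It was 0 with limma without a trend or with the t-test after Benjamini-Hochberg adjustment. With an array left out it ranged from 0 to 8, assuming that the lone array of a genotype varies like those of the other. With every probe set on its own, 1 member was called higher. The median over the members was -0.54 with no filter, -0.42 with the mean of probe sets and -0.46 with every probe set on its own. Over all genes, limma without a trend called 0 lower and 1 higher and the t-test 0 and 0. With an array left out, calls over all genes ranged from 192 to 874 lower and from 216 to 503 higher. Of the 10 lower and 1 higher member probe sets, 0 higher remained in number with a pseudocount of 1 or a mean signal of at least 200, 5 lower and 0 higher with no filter, 6 lower with quantile normalization, 4 lower with centring and 0 of either without a trend. With an array left out these were 3 to 13 lower and 0 to 1 higher.

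Sign changes were seen for Itgb7 with a pseudocount of 1 (-0.025), Ddr1 with the highest signal in each array (0.17) and Sdc3 with the mean of its probe sets (0.28). With an array left out, log2 fold changes ranged from -1.33 to 1.42 for Itgb7, from -0.54 to 0.25 for Ddr1, from -1.64 to 0.53 for Itga3, from -0.27 to 0.074 for Itga6, from -0.025 to 0.071 for Itga7, from -0.93 to 0.26 for Itga9, from -0.15 to 0.74 for Itgae, from -0.30 to 0.017 for Dag1 and from -1.06 to 0.30 for Itgb1. The cause was not tested.

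The arrays share only a replicate number (correlation of the deviations of same-numbered arrays 0.07, 2 pairs). With the number as a replicate block, 11 members were lower, Cd44 and Sdc3 in addition to the 9, and 831 genes were lower and 635 higher.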
